A study of Mus musculus with 24 samples.

Results

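The insulin-like growth factor (IGF) genes described here were the 9 members Igf1, Igf2, Igf1r, Igfbp2, Igfbp3, Igfbp4, Igfbp5, Igfbp6 and Igfbp7, found by gene symbol among the 55487 genes of the expression table. All 9 were present once and all 9 passed the filter on low values. RNA sequencing measured them in the mammary gland of 24 transgenic mice, in 8 groups of 3, whose transgene could be switched on. The CYP19A1 line (MMTV-rtTA/tet-op-CYP19A1) carried the gene of aromatase, which makes oestrogens, and the Esr1 line (MMTV-rtTA/tet-op-Esr1) carried the gene of oestrogen receptor alpha. In each line the groups were 20-month-old mice with tamoxifen under the skin (25 mg released over 60 days), 20-month-old mice with letrozole given the same way (2.5 mg over 60 days), untreated mice of 20 months, and mice of 18 months. Drug exposure lasted 2 months from the age of 18 months. The transgene had been induced for 8 months at the age of 20 months and for 6 months at the age of 18 months. Names of the 18-month samples carry a tag, Doxy, read here as doxycycline given for the induction. Names of the 20-month samples carry no such tag.

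Tamoxifen modulates oestrogen receptors, letrozole inhibits aromatase, and the doses of the drugs differed. Every mouse carried a transgene and the rtTA activator under the MMTV promoter, which is active mainly in mammary epithelium, so no comparison with mice lacking a transgene was possible. The untreated 20-month samples carry a tag, PLA, that the labels do not explain. Each group's 3 samples are named as biological replicates, with different animal numbers.

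IGF1 and IGF2 are secreted growth factors that signal through the receptor tyrosine kinase encoded by Igf1r. In the mammary gland IGF1 is made largely by stromal cells under growth hormone and acts on the epithelium, where it is needed with oestrogen for duct growth. The IGF binding proteins hold most IGF outside cells, and depending on the protein and on proteases that cut it they block or prolong IGF action. IGFBP5 is known for its rise in the involuting gland, and IGFBP7 binds IGF only weakly.

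Values are in TPM, a gene's share of all transcripts of a library corrected for transcript length, so levels of different genes can be set beside each other. Between 14410 and 17684 genes reached 1 TPM in a library, and TPM keeps no read depth. The 24 libraries differed in tissue make-up: the summed TPM of 8 skeletal muscle markers was 20.9 in 1 library of the CYP19A1 line at 18 months and 147 in 1 of the Esr1 line at 18 months, against 5015 or more in every library of 20 months. All 8 mammary epithelium markers and all 8 white adipocyte markers were above 0 in every library, with sums of 68.6 to 834 TPM and 1043 to 8582 TPM. Replicate 2 of the untreated 20-month Esr1 group stood apart, with 17.4% of its TPM in ribosomal RNA genes against a median of 0.0577% over libraries. It held the lowest level of all 24 libraries for 6 of the 9 members, Igf1, Igf1r, Igfbp3, Igfbp4, Igfbp6 and Igfbp7.

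Igfbp2 and Igfbp5, the pair of members with the highest Pearson's r over the 24 libraries, are also neighbours in the genome. In the RefSeq annotation of GRCm38.p6, the mouse build also called mm10, Igfbp2 lies on the forward strand at chr1:72824480-72852474 and Igfbp5 on the reverse strand at chr1:72858065-72874865, end to end with a gap of 5590 bases. The 250 bases before each start, from RefSeq's promoter table for GRCm38.p6, are shown for 2 reasons. Igfbp2 carries the main drug result, and Igfbp5 is the neighbour whose level correlated with that of Igfbp2 over the 24 libraries. Igfbp5 itself did not pass under letrozole, with -0.37 in the Esr1 line (adjusted p = 0.48, limma) and -0.17 in the CYP19A1 line. Whether position or tissue make-up had a part in the correlation was not tested. Capitals mark the letters GGGCGG, the GC box, found on either strand. The Igfbp2 window is chr1:72824230-72824479 and the Igfbp5 window is chr1:72874866-72875115 on the reverse strand, each written 5′ to 3′ along the gene.
Igfbp2: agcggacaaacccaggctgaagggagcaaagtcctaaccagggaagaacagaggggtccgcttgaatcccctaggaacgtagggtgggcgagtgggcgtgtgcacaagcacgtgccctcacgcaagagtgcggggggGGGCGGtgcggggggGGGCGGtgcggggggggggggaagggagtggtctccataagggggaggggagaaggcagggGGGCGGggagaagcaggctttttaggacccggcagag
Igfbp5: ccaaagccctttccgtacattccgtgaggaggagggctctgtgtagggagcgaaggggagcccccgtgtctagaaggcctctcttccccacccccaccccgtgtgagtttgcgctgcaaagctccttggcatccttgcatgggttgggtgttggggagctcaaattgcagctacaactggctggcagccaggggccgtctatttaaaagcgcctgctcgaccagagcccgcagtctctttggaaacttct
The Igfbp2 window was 67.2% G and C and held 3 GC boxes, at 113, 98 and 37 bases before the start. The Igfbp5 window was 58.8% G and C and held none. Over 27025 mouse windows of the same length, 32.9% held a GC box, and the median G and C content was 52%. The full oestrogen response element, GGTCA and TGACC with 3 bases between them, occurred in 0 of the 9 members' windows and in 0.0629% of all windows. One arm alone, GGTCA on either strand and also counted within the full element, occurred in 5 of the 9, Igf1, Igf2, Igf1r, Igfbp6 and Igfbp7, against 34.9% of all windows. A TATA box with the letters TATAAA lay 28 bases before the start of Igfbp4 and 148 before that of Igfbp6, in 2 of 9 windows against 13.0% of all windows. RefSeq lists 4 windows for Igf2 and 2 for Igfbp2, of which only the first was searched. The windows of Igf1, Igfbp3 and Igfbp4 lie inside the gene spans given next. Letters not found in these windows say nothing of binding elsewhere. The other members lie at chr10:87858265-87937047 (Igf1), chr7:142650768-142666816 (Igf2), chr7:67952257-68233668 (Igf1r), chr11:7206086-7215498 (Igfbp3), chr11:99040005-99052655 (Igfbp4), chr15:102144186-102149512 (Igfbp6) and chr5:77349240-77408045 (Igfbp7). Igf1 overlaps Igf1os, Igf2 overlaps Igf2os and Mir483, Igfbp7 overlaps Polr2b and Gm34648, and Igf1r overlaps Gm51488 and Gm51487. Libraries were stranded per the labels. Sources used here do not say whether counting used the strand, so reads of such partners may be shared.

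The binding protein transcripts outweighed the ligand transcripts in every library. The summed TPM of the 6 binding protein genes was 14.985 ± 3.07 times that of Igf1 and Igf2 together (SD, n = 24), with a range of 9.82 to 22.3. Igfbp5 was the most abundant member at a mean of 196 ± 71.9 TPM, followed by Igfbp4 at 119 ± 52.6 TPM and Igfbp7 at 99.4 ± 20.8 TPM. Igfbp6 averaged 43.9 ± 17.0 TPM, Igfbp3 11.1 ± 10.98 TPM and Igfbp2 2.16 ± 1.66 TPM. Of the ligands and receptor, Igf1 averaged 30.0 ± 9.42 TPM, Igf1r 8.80 ± 1.92 TPM and Igf2 2.67 ± 0.69 TPM. Igf2 therefore made up 9.03% ± 4.26 of the ligand transcripts. As shares of the binding protein transcripts, Igfbp5 held 41.4% ± 10.2, Igfbp4 24.9% ± 9.21, Igfbp7 21.2% ± 3.29, Igfbp6 9.48% ± 3.77, Igfbp3 2.54% ± 2.97 and Igfbp2 0.458% ± 0.353.

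**Figure D1:**
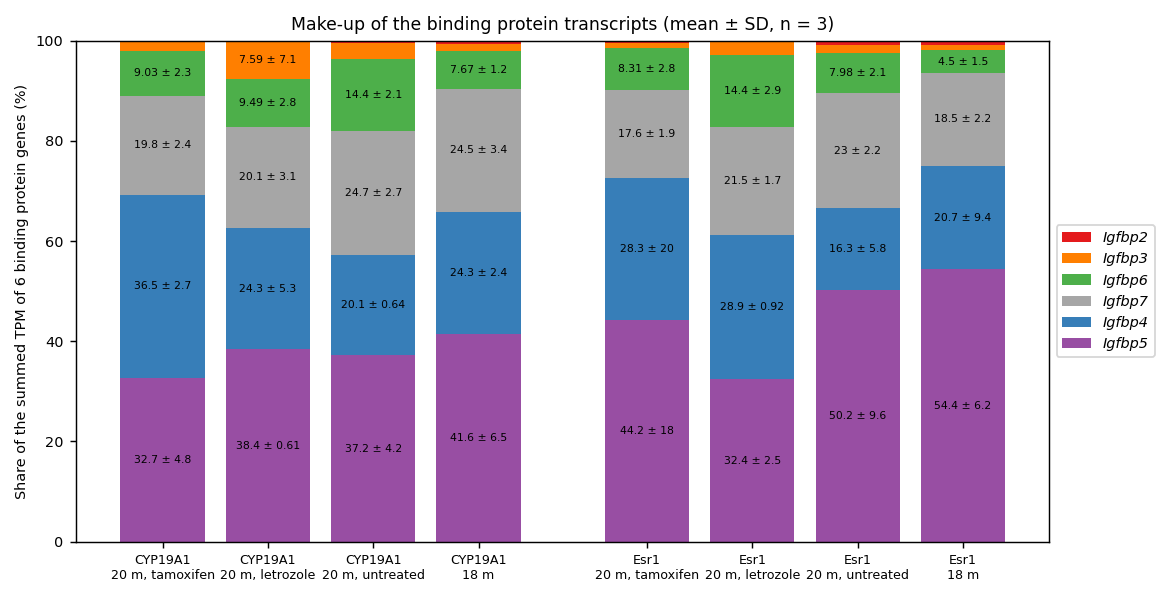
Share of each gene in the summed TPM of the 6 binding protein genes (y axis, percent), as group means of 3 libraries, with the mean ± SD written in each block over 4%. Igfbp5, Igfbp4 and Igfbp7 form most of every bar. The Igfbp4 block was 36.5% ± 2.73 in tamoxifen-treated CYP19A1 mice and 20.1% ± 0.638 in untreated CYP19A1 mice.

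The variability of the members differed widely. The coefficient of variation over the 24 libraries was 98.9% for Igfbp3 and 76.7% for Igfbp2, and 20.9% to 44.1% for the other 7. Igfbp2 spanned 0.19 to 5.99 TPM, a 31.5-fold range, while Igfbp7 spanned 49.7 to 148 TPM, a 2.98-fold range. When the 8 groups were ranked by mean, neighbouring groups overlapped in all 7 pairs for Igf1, Igf1r, Igfbp2, Igfbp3, Igfbp4, Igfbp5 and Igfbp7. By group mean, Igfbp2 was highest in 18-month Esr1 mice, followed by untreated Esr1 and 18-month CYP19A1 mice, and lowest in letrozole CYP19A1 mice. Igfbp3 was highest in letrozole CYP19A1 mice and lowest in tamoxifen Esr1 mice, and Igfbp4 highest in tamoxifen CYP19A1 mice and lowest in untreated Esr1 mice. Igfbp7 was highest in untreated and lowest in letrozole CYP19A1 mice, Igf2 highest in letrozole and lowest in 18-month Esr1 mice, and Igfbp6 likewise. For Igf2 the CYP19A1 group of 18 months overlapped neither with the Esr1 tamoxifen group above it nor with the Esr1 group of 18 months below it. For Igfbp6 the untreated and tamoxifen groups of the CYP19A1 line, second and next in order, did not overlap.

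**Figure D2:**
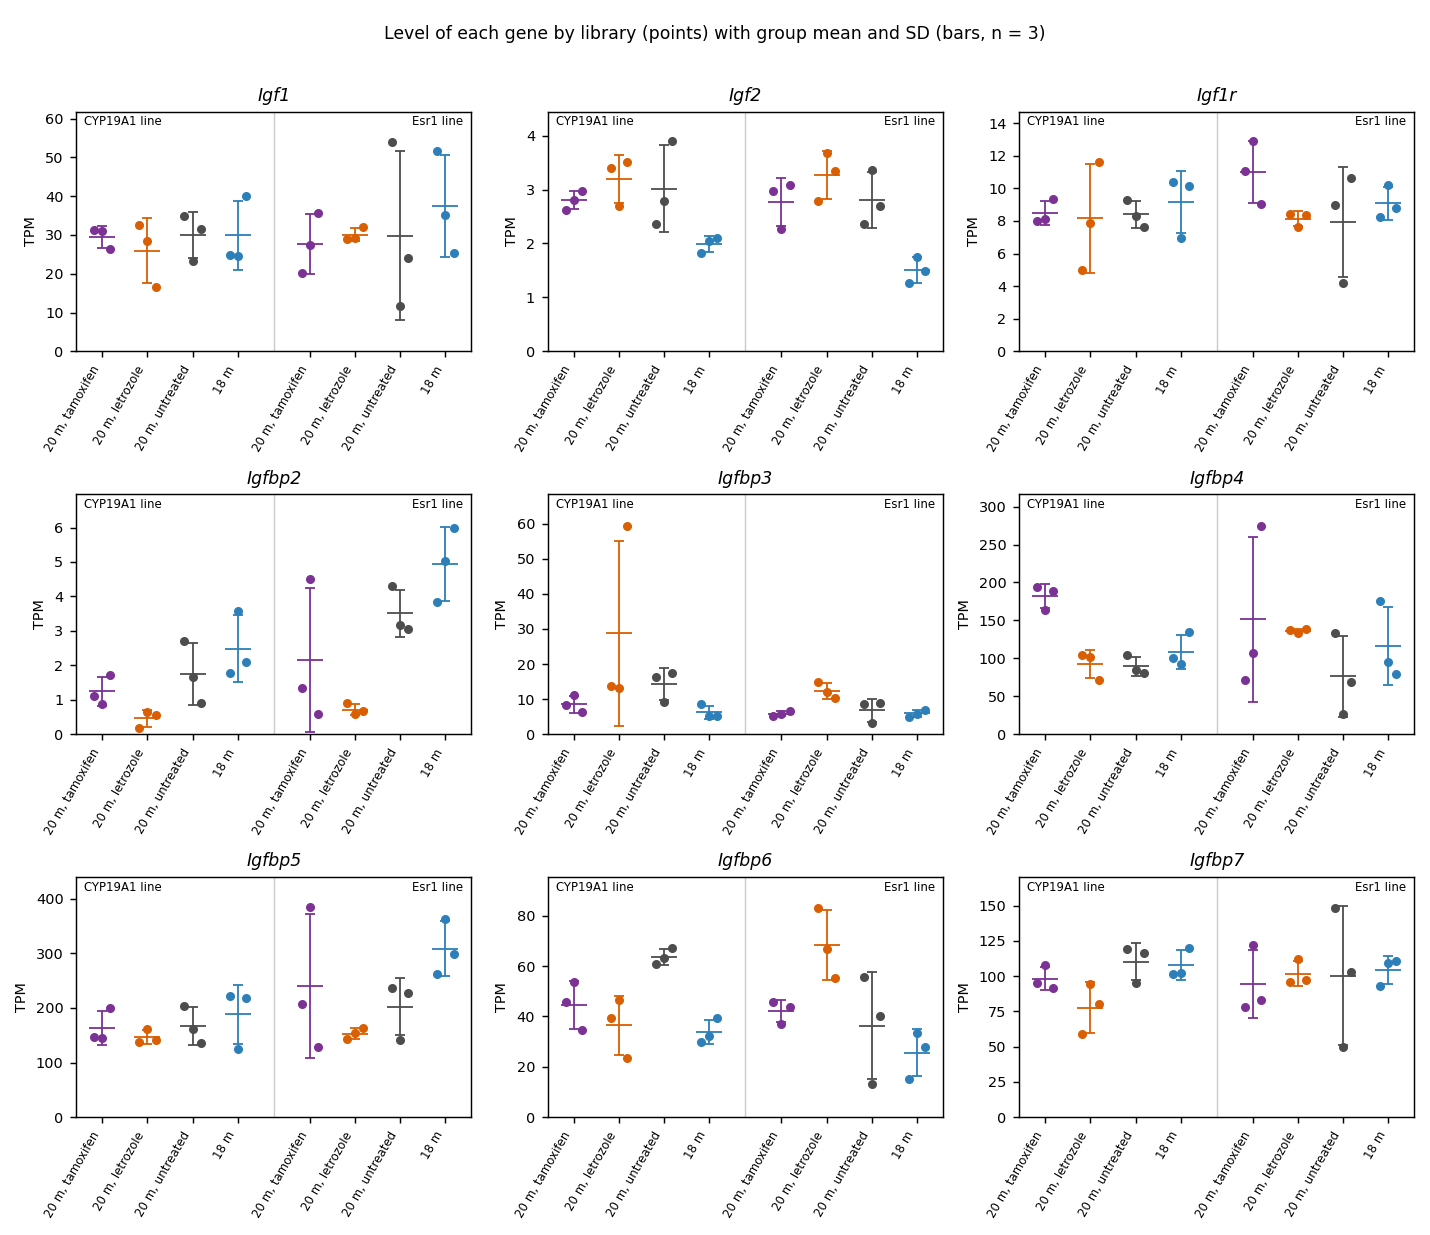
TPM of each member (y axis, linear from 0) in each library (points) by group (x axis), with the group mean and SD (bars, n = 3). The 6 libraries of 18 months sit below all 18 libraries of 20 months for Igf2 and the 6 letrozole libraries lie at 0.19 to 0.90 TPM for Igfbp2.

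Igf1 encodes the main ligand made in the gland's stroma. Igf1 averaged 29.5 ± 2.81 TPM under tamoxifen, 25.9 ± 8.39 under letrozole, 29.9 ± 5.92 untreated at 20 months and 29.9 ± 8.91 at 18 months in the CYP19A1 line (SD, n = 3 each). Igf1 in the Esr1 line averaged 27.7 ± 7.71 TPM under tamoxifen, 30.1 ± 1.67 under letrozole, 29.8 ± 21.8 untreated at 20 months and 37.5 ± 13.2 at 18 months. The highest mean, of 18-month Esr1 mice, and the lowest, of letrozole CYP19A1 mice, were the ends of an order in which all neighbours overlapped. Its smallest p was for 20 against 18 months in the Esr1 line, where libraries held 53.9, 11.6 and 23.9 TPM at 20 months and 51.7, 35.2 and 25.5 TPM at 18 months. It was a log2 difference of -0.52 ± 0.38 (SE) with an adjusted p of 0.75 (limma), and it was 0.0013 without the library of 11.6 TPM, replicate 2 of the untreated Esr1 group. No comparison of Igf1 passed in the fit of the 8 groups without covariates. With marker scores as covariates the line difference averaged over the 4 conditions passed (-0.30, adjusted p = 0.0305).

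Igf2, the second ligand, is an imprinted gene that is highly active before birth. Its levels divided by age. The 18 libraries of 20 months held 2.26 to 3.91 TPM with a median of 2.89 TPM, and the 6 libraries of 18 months held 1.27 to 2.11 TPM. In the CYP19A1 line untreated mice had 2.36, 2.78 and 3.91 TPM at 20 months against 1.83, 2.05 and 2.11 TPM at 18 months. Esr1 mice had 2.36, 3.37 and 2.7 TPM at 20 months against 1.27, 1.75 and 1.49 TPM at 18 months. Every 20-month level, with or without a drug, lay above every 18-month level. Under tamoxifen the CYP19A1 line held 2.63, 2.81 and 2.97 TPM and the Esr1 line 2.97, 2.26 and 3.08 TPM. Under letrozole the CYP19A1 line held 3.40, 2.69 and 3.51 TPM and the Esr1 line 2.79, 3.68 and 3.34 TPM. Both drug groups overlapped with untreated mice in both lines. The untreated age difference was 0.41 ± 0.15 on the log2 scale in the CYP19A1 line (adjusted p = 0.0917) and 0.60 ± 0.15 in the Esr1 line (adjusted p = 0.73; unadjusted p = 0.000886), neither past the threshold of 0.05 (limma). Of all tested genes, 9.45% were called in the CYP19A1 line and 0.00517% in the Esr1 line. Of the members, 3 did not overlap by age in the CYP19A1 line, Igf2, Igfbp3 and Igfbp6, against 41.3% of all genes, and 2 in the Esr1 line, Igf2 and Igfbp5, against 5.27%.

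The mean of the 2 within-line age differences, a comparison added after the data were seen, gave 0.50 ± 0.11 for Igf2 with an adjusted p of 0.0348 (limma), against 4.21% of all genes called. Igf2 was the only member called there, and the median over all genes moved by -0.20 in that comparison and by -0.23 and -0.14 in the CYP19A1 and Esr1 lines, so Igf2 moved against it. The call was lost with marker scores of muscle, epithelium and adipose tissue as covariates (0.19, adjusted p = 0.58) and in 9 other settings out of 33. Among these were fits without untreated replicate 3 of the Esr1 line, or without 18-month replicate 1, untreated replicate 2, untreated replicate 3 or tamoxifen replicate 1 of the CYP19A1 line, with an adjusted p of up to 0.113. Muscle content also differed by age: the 8 muscle markers summed to 16202 to 27485 TPM in untreated CYP19A1 mice of 20 months against 20.9 to 5892 TPM at 18 months, and to 5015 to 16452 TPM at 20 months against 147 to 11243 TPM at 18 months in the Esr1 line. In the Esr1 line the muscle ranges of the 2 ages overlapped. Untreated replicate 2 of that line held 17.4% of its TPM in ribosomal RNA genes. It had the lowest muscle sum of its group, 5015 TPM, and the highest Igf2, 3.37 TPM. Of the 18-month CYP19A1 libraries, the one with 20.9 TPM of muscle markers had the highest Igf2, 2.11 TPM. In 18-month Esr1 mice the library of lowest muscle, 147 TPM, had the lowest Igf2, 1.27 TPM. In untreated CYP19A1 mice of 20 months the library of highest muscle, 27485 TPM, had the highest Igf2, 3.91 TPM. The part of muscle content in the result was not tested further. In bulk tissue, more or fewer cells of a type and more or less RNA per cell cannot be told apart. Without the library of lowest muscle in each 18-month group, a setting added after the data were seen, the averaged difference was 0.48 (adjusted p = 0.0178, limma). The 18-month CYP19A1 libraries kept there had muscle sums of 3529 and 5892 TPM, against 16202 TPM or more in untreated mice of 20 months. Muscle thus still differed by age in that line. H19, the imprinted RNA gene next to Igf2, held 86.0, 82.8 and 112 TPM at 20 months and 15.6, 30.2 and 0.93 TPM at 18 months in the CYP19A1 line (log2 difference 3.23, adjusted p = 0.0618, limma), and it did not pass.

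Igf1r, the receptor, averaged 8.47 ± 0.736 TPM under tamoxifen, 8.15 ± 3.32 under letrozole, 8.40 ± 0.814 untreated and 9.18 ± 1.91 at 18 months in the CYP19A1 line. In the Esr1 line it averaged 11.02 ± 1.92 TPM under tamoxifen, 8.15 ± 0.465 under letrozole, 7.93 ± 3.36 untreated and 9.08 ± 1.03 at 18 months. Ordered by mean from tamoxifen Esr1 mice down to untreated Esr1 mice, neighbouring groups all overlapped. Its smallest p was for tamoxifen in the Esr1 line, with 11.1, 12.9 and 9.07 TPM under tamoxifen and 9.0, 4.17 and 10.6 TPM in untreated mice. The log2 difference of 0.50 ± 0.26 (adjusted p = 0.31, limma) was 0.14 without replicate 2 of the untreated Esr1 group and 0.72 with marker scores as covariates (adjusted p = 0.060).

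Igfbp2 was the 1 member that passed the test in a within-line drug comparison, with lower levels under letrozole. IGFBP2 is a secreted binding protein that can also bind integrins. In the Esr1 line the libraries held 0.90, 0.59 and 0.66 TPM under letrozole and 4.30, 3.18 and 3.04 TPM in untreated mice, with no overlap. In the CYP19A1 line they held 0.19, 0.65 and 0.56 TPM under letrozole and 2.7, 1.66 and 0.91 TPM untreated, again without overlap. The mean under letrozole was 4.89-fold lower than untreated in the Esr1 line and 3.76-fold lower in the CYP19A1 line. On the log2 scale Igfbp2 differed by -1.39 ± 0.33 in the Esr1 line (adjusted p = 0.0153), -0.87 ± 0.33 in the CYP19A1 line (adjusted p = 1.0, unadjusted p = 0.0151) and -1.13 ± 0.23 averaged over lines (adjusted p = 0.0221), all by limma. The test of the difference between the lines gave 0.51 ± 0.46 (adjusted p = 0.69), so the lines were not shown to differ. Over all tested genes, 8.65% were called in the Esr1 line, 0.0207% in the CYP19A1 line and 3.22% in the average.

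The letrozole difference moved with mammary epithelium. The 8 epithelial markers summed to 68.6 to 290.3 TPM in letrozole CYP19A1 mice against 299 to 436 TPM in untreated ones, and to 132 to 210.5 TPM under letrozole against 485 to 637 TPM untreated in the Esr1 line. With marker scores of epithelium, muscle and adipose tissue as covariates the Igfbp2 difference was -0.45 ± 0.38 in the Esr1 line (adjusted p = 0.59) and -0.31 ± 0.29 in the average (adjusted p = 0.68). The part of epithelial content in the result was not tested further. Without replicate 2 of the untreated Esr1 group the Esr1 difference was -1.43 (adjusted p = 0.0432). Leaving out 1 library at a time, the Esr1 call was lost without letrozole replicate 2 (adjusted p = 0.0723). The averaged call was lost without that library, letrozole replicate 1 of the CYP19A1 line, or untreated replicate 1 or 2 of the CYP19A1 line, with an adjusted p of up to 0.0772.

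Tamoxifen gave no such call for Igfbp2. The libraries held 1.12, 0.89 and 1.71 TPM under tamoxifen in the CYP19A1 line and 1.33, 4.52 and 0.59 TPM in the Esr1 line. These overlapped with the untreated mice of the CYP19A1 line and of the Esr1 line. From untreated mice Igfbp2 differed by -0.26 ± 0.33 in the CYP19A1 line (adjusted p = 1.0; 0.160% of all genes called) and -0.71 ± 0.33 in the Esr1 line (adjusted p = 0.25; 1.55% called). Without the library of 4.52 TPM, replicate 2 of the Esr1 tamoxifen group, the Esr1 difference was -1.22 with an adjusted p of 0.0280 (limma). Epithelial markers summed to 587 TPM in that library and to 310 and 239 TPM in the tamoxifen Esr1 libraries kept. In untreated Esr1 mice they summed to 485 to 637 TPM. The part of epithelial content in this difference was not tested further. Between the drugs, tamoxifen less letrozole was 0.61 ± 0.33 in the CYP19A1 line, where the groups did not overlap (adjusted p = 0.55; 0.248% of genes called), and 0.68 ± 0.33 in the Esr1 line (adjusted p = 0.66; 0.129% called).

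Igfbp2 was also lower in the CYP19A1 line than in the Esr1 line without passing the test. Mice of 18 months had 1.77, 3.58 and 2.11 TPM in the CYP19A1 line and 3.84, 5.03 and 5.99 TPM in the Esr1 line, with no overlap. The line difference of Igfbp2 was -0.79 at 18 months, -0.75 at 20 months untreated, -0.30 under tamoxifen and -0.24 under letrozole. Epithelial markers were also lower in untreated 20-month CYP19A1 mice, at 299 to 436 TPM against 485 to 637 TPM in Esr1 mice without overlap, while at 18 months they were at 425 to 716 TPM in CYP19A1 mice and 398 to 834 TPM in Esr1 mice. Their part in the line difference was not tested beyond the fit with marker covariates given next. The averaged line difference over the 4 conditions was -0.52 ± 0.16 (adjusted p = 0.0617, limma; 7.27% of genes called). With marker scores of epithelium, muscle and adipose tissue as covariates it did not pass, and Igf1 was the only member called. The Igfbp2 line difference passed with median-ratio scaling (adjusted p = 0.0323) and with TPM rescaled to nuclear protein-coding genes (adjusted p = 0.0469). It also passed without 18-month replicate 1 or tamoxifen replicate 3 of the Esr1 line, or 18-month replicate 2 or untreated replicate 1 of the CYP19A1 line, with the lowest adjusted p at 0.0108.

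**Figure D3:**
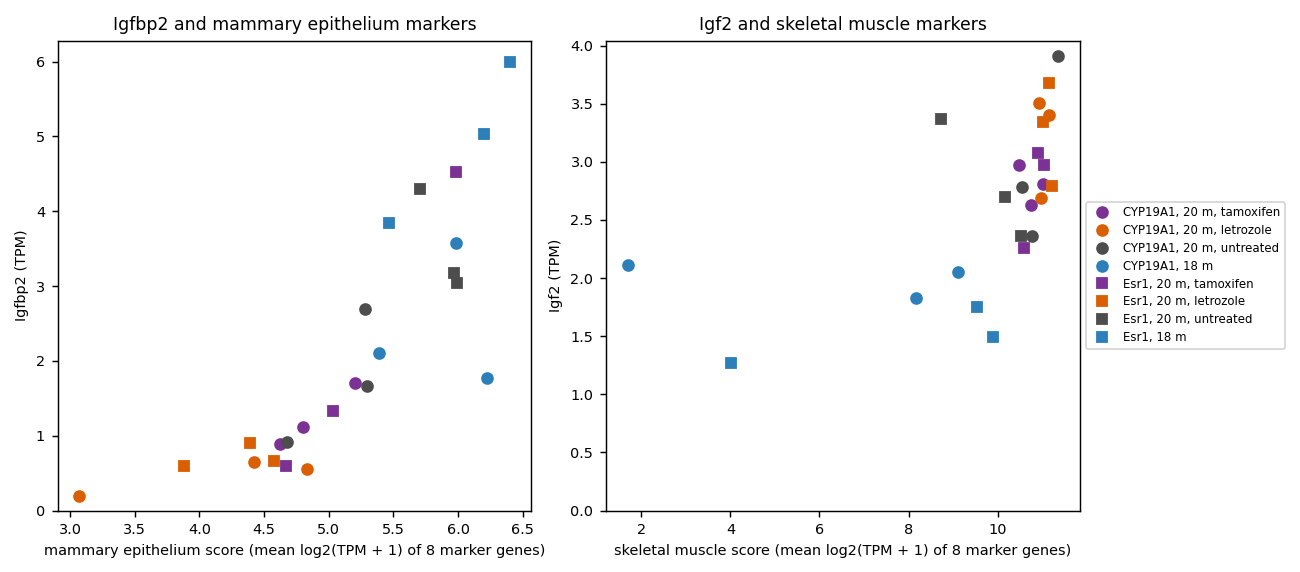
Igfbp2 (left, TPM) against the epithelium score and Igf2 (right, TPM) against the muscle score (x axes, mean log2(TPM + 1) of 8 marker genes), 1 point a library, circles for the CYP19A1 line and squares for the Esr1 line. The 6 letrozole libraries span 0.19 to 0.90 TPM of Igfbp2. The 6 libraries of 18 months span 1.27 to 2.11 TPM of Igf2, below the 18 libraries of 20 months.

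Igfbp4 encodes a binding protein that mostly blocks IGF and is cut by the protease PAPP-A. Igfbp4 was high under tamoxifen in the CYP19A1 line, with 194, 164 and 188 TPM against 104, 84.1 and 81.2 TPM in untreated mice, a 2.03-fold ratio of means with no overlap. The Esr1 line held 71.7, 107 and 275 TPM under tamoxifen and 133, 26.5 and 69.0 TPM untreated, and these overlapped. The log2 difference was 1.02 ± 0.46 in each line, and 1.02 ± 0.32 averaged over lines with an adjusted p of 0.197 (limma, unadjusted p = 0.00508; 0.492% of genes called). It passed in the average without untreated replicate 1 of the Esr1 line (1.29, adjusted p = 0.0301), and it was 0.72 without replicate 2 of that group and 0.75 without tamoxifen replicate 3 of the Esr1 line. Without untreated replicate 1 it also passed within the Esr1 line (1.56, adjusted p = 0.0443). In the CYP19A1 line it passed when only the compared groups were fitted (adjusted p = 0.0270). Adipocyte markers also differed by score in the CYP19A1 line. Their score, the mean log2(TPM + 1) of 8 genes, was 8.57 to 8.93 under tamoxifen and 8.08 to 8.32 in untreated mice, without overlap. Their summed TPM overlapped there, at 5365 to 6176 under tamoxifen and 3990 to 5623 untreated. In the Esr1 line the sums were 3686, 2754 and 5464 under tamoxifen and 5475, 1043 and 2800 in untreated mice. Untreated Esr1 libraries stood in the same order by adipocyte sum as by Igfbp4, and tamoxifen Esr1 libraries did not. With marker scores as covariates the averaged Igfbp4 difference was 0.59 (adjusted p = 0.18). Of the 9 members, 2 did not overlap between tamoxifen and untreated mice in the CYP19A1 line, Igfbp4 and Igfbp6, against 20.3% of all genes, and 0 in the Esr1 line against 14.4%.

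Under letrozole Igfbp4 did not pass in either line. The CYP19A1 line held 105, 102 and 71.3 TPM under letrozole, overlapping with its untreated mice. The Esr1 line held 137, 134 and 139 TPM, all above its untreated mice. The log2 difference there was 1.11 ± 0.46 (adjusted p = 0.13, limma). It passed only without untreated replicate 1 (1.65, adjusted p = 0.0174). That fit kept the untreated libraries of 26.5 and 69.0 TPM. The difference did not pass without replicate 2 of that group, the library of 26.5 TPM, or with marker scores as covariates. Adipocyte markers summed to 4950, 5411 and 5482 TPM under letrozole and 5475, 1043 and 2800 TPM in untreated Esr1 mice. The part of adipocyte content was not tested further. Between the lines under letrozole, 3 members did not overlap, Igfbp4, Igfbp6 and Igfbp7, against 17.6% of all genes, and under tamoxifen 0 against 17.7%. Mice of 18 months had 99.9, 92.0 and 134.5 TPM in the CYP19A1 line and 175, 95.1 and 79.2 TPM in the Esr1 line. Igfbp4 levels ran with Igf1: Pearson's r of log2(TPM + 1) over 24 libraries was 0.73 and Spearman's rho 0.66, with r at 0.60 after leaving out the 2 libraries farthest from the median and 0.89 for the deviations from the group means.

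Igfbp5, the most abundant binding protein transcript, averaged 164 ± 31.4 TPM under tamoxifen, 147 ± 13.0 under letrozole, 167 ± 34.0 untreated and 188 ± 54.6 at 18 months in the CYP19A1 line. In the Esr1 line it averaged 240.1 ± 132 TPM under tamoxifen, 153 ± 10.4 under letrozole, 202 ± 52.6 untreated and 309 ± 50.4 at 18 months. The highest mean was that of 18-month Esr1 mice and the lowest that of letrozole CYP19A1 mice, as for Igf1. Its smallest p was for the lines at 18 months, with 221, 125 and 219 TPM in the CYP19A1 line and 263, 363 and 299.8 TPM in the Esr1 line, with no overlap. That log2 difference was -0.74 ± 0.30 with an adjusted p of 0.43 (limma; 1.36% of genes called), and it was -0.47 without the library of 125 TPM, replicate 2 of the CYP19A1 group. Averaged over the 4 conditions the Igfbp5 line difference passed only without tamoxifen replicate 3 of the Esr1 line (-0.46, adjusted p = 0.0380). At 18 months 3 members did not overlap between the lines, Igf2, Igfbp2 and Igfbp5, against 12.4% of all genes.

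Igfbp6 encodes a binding protein with a preference for IGF2. Under letrozole its levels were lower in the CYP19A1 line and higher in the Esr1 line, without passing the test. Libraries held 39.4, 46.5 and 23.5 TPM under letrozole and 60.7, 63.3 and 67.2 TPM untreated in the CYP19A1 line, with no overlap, and 83.2, 66.6 and 55.3 TPM under letrozole and 55.6, 13.3 and 40.2 TPM untreated in the Esr1 line, with an overlap at 1 library. Its log2 difference was -0.84 ± 0.37 in CYP19A1 mice (adjusted p = 1.0) and 1.09 ± 0.37 in the Esr1 line (adjusted p = 0.0716). Fibroblast markers were also lower under letrozole in the CYP19A1 line. Their score was 6.23, 6.33 and 4.89 under letrozole and 6.72, 6.44 and 6.38 in untreated mice, without overlap. In the Esr1 line it was 6.66, 6.65 and 6.56 under letrozole, within the untreated range of 6.91, 5.38 and 6.32. The untreated Esr1 library at 5.38 held 13.3 TPM of Igfbp6 and the one at 6.91 held 55.6 TPM. The part of fibroblast content in the result was not tested. The interaction, the difference between these 2 effects, was -1.93 ± 0.52 (unadjusted p = 0.00154, adjusted p = 0.26, limma). It was -1.34 without replicate 2 of the untreated Esr1 group (adjusted p = 0.44) and -2.34 without replicate 1 (adjusted p = 0.050), and -1.14 with marker scores of muscle, epithelium and adipose tissue as covariates (adjusted p = 0.25). The Esr1 letrozole difference passed with median-ratio scaling (1.1, adjusted p = 0.0174, limma) and with rescaling to protein-coding genes (adjusted p = 0.0304). It also passed without untreated replicate 1 of that line (1.5, adjusted p = 0.0119) and without the lowest-muscle libraries of 18 months (adjusted p = 0.0482). That difference passed in no other setting. It did not pass without untreated replicate 2, the library of 13.3 TPM, or with marker scores as covariates.

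The age difference of Igfbp6 in the CYP19A1 line was 0.90 ± 0.37 (adjusted p = 0.12), with 60.7, 63.3 and 67.2 TPM at 20 months and 30.0, 32.4 and 39.2 TPM at 18 months, and the 2 ages did not overlap. It passed with median-ratio scaling (1.15, adjusted p = 0.0214, limma) and with rescaling to protein-coding genes (adjusted p = 0.0499). It also passed when only the compared groups were fitted (adjusted p = 0.0446) and without untreated replicate 2 of the Esr1 line (adjusted p = 0.0305). With marker scores as covariates it did not pass. Muscle markers there summed to 16202 to 27485 TPM at 20 months and 20.9 to 5892 TPM at 18 months. The part of muscle content was not tested further. Under tamoxifen Igfbp6 held 45.9, 53.6 and 34.6 TPM in the CYP19A1 line and 45.7, 37.1 and 43.6 TPM in the Esr1 line, and the Esr1 line at 18 months held 15.2, 33.5 and 28.0 TPM. At 20 months untreated, 3 members did not overlap between the lines, Igfbp2, Igfbp3 and Igfbp6, against 21.6% of all genes. The Igfbp6 line difference there was 1.01 ± 0.37 (adjusted p = 0.117, limma), against 5.27% of genes called. It passed with median-ratio scaling (0.99, adjusted p = 0.0353) and with rescaling to protein-coding genes (adjusted p = 0.0424). It also passed without untreated replicate 1 of the Esr1 line (1.41, adjusted p = 0.0250). It did not pass without replicate 2 of that group, the library of 13.3 TPM, or with marker scores as covariates.

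Igfbp3, the main carrier of IGF in blood, had a library far above the rest. In the CYP19A1 line letrozole libraries held 13.8, 13.2 and 59.3 TPM and untreated mice 16.2, 9.10 and 17.5 TPM, overlapping. Tamoxifen libraries of the CYP19A1 line held 8.37, 11.1 and 6.25 TPM and those of 18 months 8.47, 5.08 and 5.16 TPM. The Esr1 line held 5.18, 5.80 and 6.61 TPM under tamoxifen, 14.8, 12.0 and 10.4 TPM under letrozole, 8.54, 3.08 and 8.89 TPM untreated and 4.86, 5.86 and 7.0 TPM at 18 months. The smallest p was for tamoxifen less letrozole in the CYP19A1 line, -1.32 ± 0.43 (adjusted p = 0.34, limma), and without the library of 59.3 TPM it was -0.63 (adjusted p = 0.60). Tamoxifen levels lay below letrozole levels without overlap in both lines. In the CYP19A1 line 3 members did not overlap between the drugs, Igfbp2, Igfbp3 and Igfbp4, against 24.4% of genes, and in the Esr1 line Igf1r, Igfbp3 and Igfbp6, against 18.7%. That CYP19A1 letrozole library of 59.3 TPM also had the lowest fibroblast marker sum of the 24, 422 TPM, and an adipocyte sum of 2964 TPM. The drug difference of Igfbp3 passed in none of the 33 settings, marker covariates of muscle, epithelium and adipose tissue among them. The part of fibroblast content was not tested. At 20 against 18 months in the CYP19A1 line Igfbp3 differed by 1.06 ± 0.43 (adjusted p = 0.114, limma), and of the 33 settings it passed only with median-ratio scaling (1.29, adjusted p = 0.0400) and without that letrozole library (1.06, adjusted p = 0.0342).

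Igfbp7, a weak IGF binder found in vessel walls, averaged 98.2 ± 8.35 TPM under tamoxifen, 77.7 ± 17.8 under letrozole, 110.2 ± 13.1 untreated and 108 ± 10.6 at 18 months in the CYP19A1 line. In the Esr1 line it averaged 94.3 ± 24.2 TPM under tamoxifen, 102 ± 8.81 under letrozole, 100.4 ± 49.4 untreated and 105 ± 10.1 at 18 months. Letrozole in the CYP19A1 line gave its smallest p, with 58.8, 94.1 and 80.3 TPM under letrozole and 119, 95.1 and 116.6 TPM untreated. These did not overlap, and the log2 difference of -0.52 ± 0.27 did not pass (adjusted p = 1.0, limma). It was -0.33 without letrozole replicate 1 of that line and -0.049 with marker scores as covariates. The 8 endothelial markers were at 120 to 186 TPM in these letrozole libraries and 154 to 185 TPM in untreated ones. Of the 9 members, 3 did not overlap between letrozole and untreated mice in the CYP19A1 line, Igfbp2, Igfbp6 and Igfbp7, against 9.57% of genes, and 3 in the Esr1 line, Igfbp2, Igfbp3 and Igfbp4, against 27.6%.

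**Figure D4:**
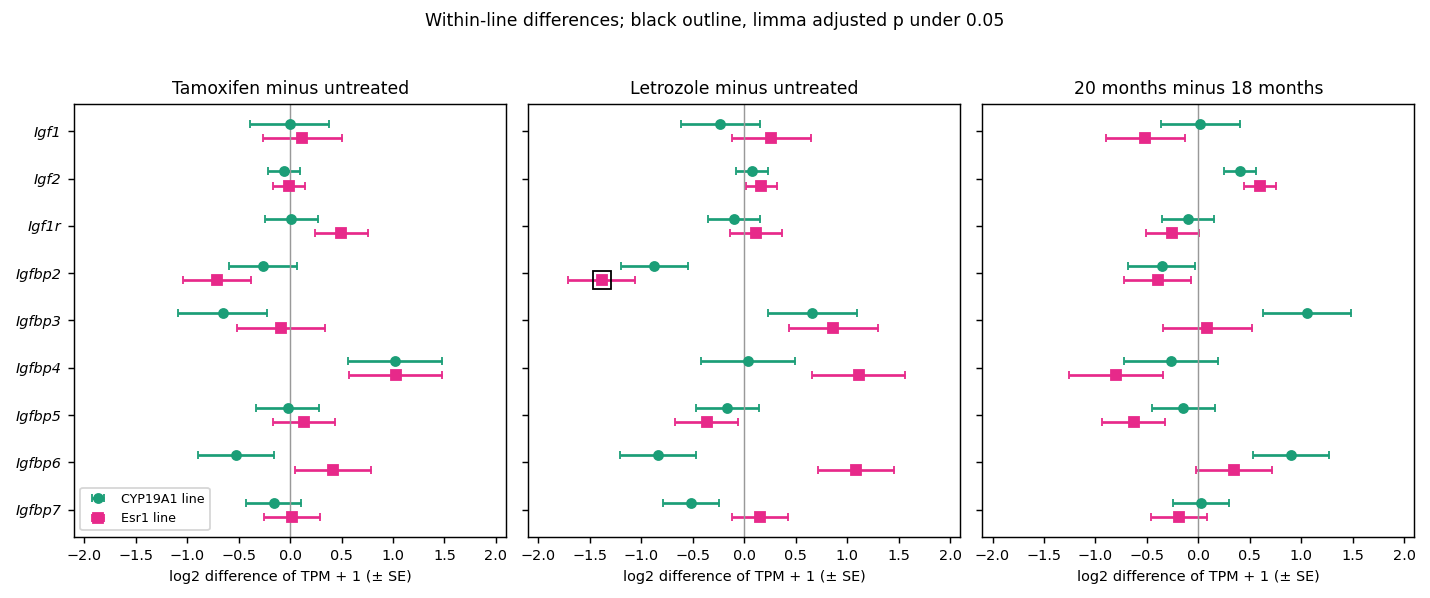
Log2 difference of TPM + 1 (x axis) with SE bars for each member (y axis) in the 3 within-line comparisons, circles for the CYP19A1 line and squares for the Esr1 line. Igfbp2 under letrozole in the Esr1 line (-1.39) carries the 1 black outline, which marks limma adjusted p under 0.05. Igfbp4 lies at 1.02 in both lines under tamoxifen.

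The comparisons within a line share the untreated libraries of 20 months, so their values are not independent. Over the 36 pairs of members, log2(TPM + 1) over the 24 libraries gave adjusted permutation p under 0.05 for both Pearson's r and Spearman's rho in 6 pairs (100000 resamples, adjusted over the 36 pairs). The libraries share groups, so these p-values ignore group differences. Igfbp2 and Igfbp5, the neighbours on chromosome 1, had r of 0.75 (adjusted p = 9e-04) and rho of 0.67 (adjusted p = 0.00639), with r at 0.70 without the 2 libraries farthest from the median and 0.62 for deviations from group means. Igf1 and Igfbp4 had r of 0.73 (adjusted p = 0.00216) and rho of 0.66 (adjusted p = 0.00639). Igf2 ran against Igfbp2, with r of -0.74 (adjusted p = 9e-04) and rho of -0.76 (adjusted p = 0.00108), and against Igfbp5, with r of -0.68 and rho of -0.67. Igfbp2 and Igfbp3 had r of -0.56 and rho of -0.62, but -0.012 within groups. Igf1r and Igfbp5 had r of 0.56 and rho of 0.60.

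Over 11892 genes of at least 2 TPM and without predicted symbols, the patterns most like each member's were ranked by Pearson's r over the same 24 libraries. Igfbp2 ran most closely with Wap, a milk protein gene (r = 0.91, rho = 0.86), Ctsh (r = 0.91) and D7Ertd443e (r = 0.91). Igf2 ran with Myhas (r = 0.76), Ptp4a3 (r = 0.75) and Phospho1 (r = 0.75). Igf1 ran with Asah1 (r = 0.91), Tshr (r = 0.90) and Sh3pxd2a (r = 0.90). Igfbp4 ran with Serinc1, Ginm1 and Prkar2b (each r = 0.95). Igfbp6 ran with Cd34 (r = 0.93), Cd248 and Adgrd1, Igf1r with Mrtfb (r = 0.94), Bhlhe41 and Cmip, and Igfbp7 with Zfp608 (r = 0.92), Pros1 and P2ry14. Igfbp5 ran with Tgfb3 (r = 0.89), Plcg2 and Cd44, and Igfbp3 with Pde4d (r = 0.82) and St3gal5 (r = 0.79).

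The other pathway genes were counted by list. In the receptor and adaptor list, which holds Igf2r, Insr, Irs1, Irs2 and signalling genes below them, 12 of 14 genes passed the filter on low values and 0 of the 12 passed the test in any of the 19 comparisons (limma; 38 of 228 pairs of a gene and a comparison had an unadjusted p under 0.05). Of the RNA-binding proteins and H19, 3 of 4 passed the filter and 0 the test (limma; 4 of 57 such pairs had an unadjusted p under 0.05). In the list of other binding proteins and proteases, 10 genes were listed and 6 tested, and 3 of the 6 fell under letrozole in the Esr1 line: Igfals, the acid-labile subunit (-1.47 ± 0.38, adjusted p = 0.0223), Pappa, the protease that cuts IGFBP4 (-0.73 ± 0.22, adjusted p = 0.0411), and Stc1, a stanniocalcin (-1.22 ± 0.26, adjusted p = 0.0101). In the growth hormone axis list 2 of 6 fell there, the transcription factor gene Stat5a (-1.51 ± 0.31, adjusted p = 0.00811) and its target Cish (-1.72 ± 0.36, adjusted p = 0.0087). The median log2 difference was -0.057 over the tested genes of the binding protein and protease list and -0.27 over the growth hormone axis list, against -0.0056 over all genes. Of all tested genes, 8.65% were called in that comparison. With marker scores as covariates none of these 5 passed. Over the 33 settings the calls were lost in 14 for Pappa, 5 for Igfals, 2 for Stc1, 3 for Cish and 1 for Stat5a. Pappa levels were low, at 0.45, 0.26 and 0.32 TPM under letrozole and 1.68, 0.64 and 1.5 TPM untreated in the Esr1 line. Stat5a libraries held 13.9, 13.2 and 15.1 TPM under letrozole and 29.5, 59.3 and 42.1 TPM untreated in the Esr1 line, without overlap.

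Averaged over lines, lower levels under letrozole passed for Igfals (-1.05 ± 0.27, adjusted p = 0.0400), Pappa (-0.68 ± 0.15, adjusted p = 0.0262) and Stat5a (-1.01 ± 0.22, adjusted p = 0.0253), against 3.22% of all genes called. These calls were lost in 15 of 33 settings for Igfals, 9 for Pappa and 8 for Stat5a. Under tamoxifen in the Esr1 line Stat5a fell by 1.46 ± 0.31 (adjusted p = 0.0274; 1.55% of genes called), lost in 4 settings. In the CYP19A1 line at 20 against 18 months, Stat5a (-1.29 ± 0.31, adjusted p = 0.0202), Igfals (-1.26 ± 0.38, adjusted p = 0.0425) and Stc1 (-0.93 ± 0.26, adjusted p = 0.0336) fell, against 9.45% of all genes called. These calls were lost in 5 of 33 settings for Stat5a, 17 for Igfals and 8 for Stc1. Epithelial markers in those libraries summed to 299 to 436 TPM at 20 months and 425 to 716 TPM at 18 months, and muscle markers to 16202 to 27485 TPM at 20 months and 20.9 to 5892 TPM at 18 months. The 33 settings included a fit with marker scores of muscle, epithelium and adipose tissue as covariates. The part of these tissues in the differences was not tested further. Stc2, whose product blocks PAPP-A, was higher in the CYP19A1 line than in the Esr1 line at 20 months untreated, with 16.7, 19.2 and 20.9 TPM in CYP19A1 mice against 9.62, 2.37 and 6.86 TPM in Esr1 mice (1.60 ± 0.34, adjusted p = 0.00953). That call of Stc2 was lost in 2 of 33 settings. Averaged over the 4 conditions Stc2 was 0.84 ± 0.17 higher (adjusted p = 0.00294, limma), and the averaged call was kept in all 33 alternative settings. Under letrozole the lines overlapped in Stc2, with 5.42, 9.59 and 12.5 TPM in CYP19A1 mice and 8.33, 10.6 and 8.36 TPM in Esr1 mice. At 20 months untreated the CYP19A1 line also had less Stat5a (-1.12 ± 0.31, adjusted p = 0.0413) and Cish (-1.35 ± 0.36, adjusted p = 0.0338), against 5.27% of all genes called. These 2 calls were lost in 15 settings for Stat5a and 8 for Cish.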

How the data were processed

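The authors deposited a table of TPM for 55487 genes in 24 libraries, given to 2 decimals. Per the submitters' processing notes, the tools were FastQC 0.11.9, Trim Galore 0.6.5, STAR 2.7.9a and RSEM 1.3.1 with the genome build mm10; sources used here give neither their roles nor the gene annotation. Per the labels' protocols, the libraries were strand-specific, depleted of ribosomal RNA and randomly primed. TPM keeps no depth, so no counting interval was given. A change in abundant RNA or in tissue make-up shifts every other value.

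A pseudocount of 1 was added before taking log2. limma 3.58.1 (R 4.3.3), with its trend and robust options, tested the 19325 genes that reached 1 TPM in 3 or more libraries. All 24 libraries entered a single fit with 8 groups, and p-values were adjusted over all tested genes of each comparison (Benjamini-Hochberg), with a threshold of 0.05. Log2 differences carry their SE; the pseudocount shrinks those of low genes. There were 18 planned comparisons and 1 added after the data were seen, the age difference averaged over lines. The fit was tested on simulated data.

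The members, the pathway lists and the marker lists were chosen with earlier results of these data known. Each member was named with its called comparisons or, if none, its smallest p, and list genes where they passed, up to 4 per list and comparison. Genes like each member were the 3 with the highest r, of which 1 is not reported here. Alternatives were another pseudocount (0.1), no filter, 2 other scalings, only the compared groups, a replicate block, tissue marker covariates, another variance model, each library left out, and, added after seeing the data, leaving out the lowest-muscle library of each 18-month group.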

Additional observations from a re-analysis of the deposited data

How the results depend on the processing

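Each result was recomputed in 33 alternative settings, 24 of which left out 1 library. The counts of members called moved as follows. With median-ratio scaling the count was 1 for the lines at 20 months untreated and for the averaged lines, 2 for 20 against 18 months in the CYP19A1 line, 2 for letrozole in the Esr1 line and 2 for the averaged age difference, against 0, 0, 0, 1 and 1; of all genes it called 2854, 2258, 1721, 4111 and 1062 there, against 1019, 1404, 1827, 1672 and 813. Rescaling to nuclear protein-coding genes gave 1, 1, 1 and 2 in the first 4 of these, and fitting only the compared groups gave 1 for age and 1 for tamoxifen in the CYP19A1 line, against 0, and 0 for the averaged age difference. Marker covariates gave 1 for the averaged lines, where Igf1 was called (-0.30, adjusted p = 0.0305), and 0 for letrozole in the Esr1 line, for averaged letrozole and for averaged age. With no filter the averaged letrozole and averaged age counts were 0, and the averaged age count was also 0 with a pseudocount of 0.1. Without the lowest-muscle libraries the letrozole count in the Esr1 line was 2. With 1 library left out, the counts ranged from 0 to 1 for the lines at 20 months untreated, age in the CYP19A1 line, tamoxifen in the Esr1 line, averaged tamoxifen and averaged letrozole, from 0 to 2 for the averaged lines and averaged age, and from 0 to 3 for letrozole in the Esr1 line. The Igf1 age difference in the Esr1 line reversed to 0.21 with covariates and to 0.0013 without untreated replicate 2, and with 1 library left out it ranged from -1.06 to 0.0013. Causes were not tested.

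Libraries with the same replicate number did not deviate together: over 12 comparisons of 2 groups, the correlations of their deviations ranged from -0.41 to 0.30, so the numbers only name samples. With the replicate number as a block, Igfbp2 under letrozole kept its calls in the Esr1 line (-1.39, adjusted p = 0.0176) and in the average (-1.13, adjusted p = 0.0278), and averaged Igf2 by age did not pass (0.50, adjusted p = 0.0566). The block moved the count of all genes called for averaged age to 26, against 813, and no other count of members called. Covariates lowered the count of all genes called under letrozole in the Esr1 line to 20, against 1672, and in the average to 2, against 623. They gave 0 for averaged age and 2075 for the averaged lines. Rescaling to protein-coding genes called 2134, 1984, 2039 and 2976 of all genes in the first 4 comparisons. Of the 16 list results, 15 lost their call in at least 1 setting and none reversed. Depth is unknown, so no detection limit can be given.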

Other observations

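Several genes of the pathway were near 0 in the gland. Igfbp1, whose product is made chiefly by the liver, was listed at 0 in 22 of 24 libraries and at 0.07 TPM or less in the other 2. Irs4 and Insrr stayed at 0.02 TPM or less and 0.15 TPM or less. Ghr, the growth hormone receptor, was abundant, with 333, 282 and 231 TPM under tamoxifen and 174, 127 and 159 TPM untreated in the CYP19A1 line, without overlap. In the Esr1 line it held 136, 158 and 294 TPM under tamoxifen and 252, 43.1 and 101 TPM untreated. The averaged log2 difference of Ghr was 0.85 ± 0.33 (adjusted p = 0.31, limma), which did not pass.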
